A study of Mus musculus with 2 samples.

Results

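The genes described here are 44 that act in mitosis and chromosome segregation, read in common myeloid progenitors, marrow cells from which the granulocyte, monocyte, megakaryocyte and red cell lines descend. They were chosen by symbol as a list of mitotic genes and not by a cut on their measured values, though earlier results of these data were known. Each was found by its Ensembl gene ID in the table of 43346 gene entries. All 44 are nuclear protein-coding genes, a class of 21461 in this table. The study holds 1 group with 2 libraries, both from primary cells of C57BL/6J mice, male, adult and 5 to 6 weeks old. Each library used a ScriptSeq kit on 100 ng of total RNA from which ribosomal RNA had been removed. The labels state a size range of 200 to 1000 in replicate 1, and of 187 to 1606 in replicate 2, with no unit. Though labelled biological replicates 1 and 2, the libraries share a donor label, and their spread may be partly technical. There was no second condition, so no test between groups was possible, and values are given per library and as mean ± SD over both (n = 2).

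Mitosis divides the copied chromosomes between daughter cells. Cyclin-dependent kinase 1 with its cyclins starts the process, condensins and topoisomerase compact and untangle the chromosomes, kinetochores join them to spindle microtubules, and a checkpoint holds back separation until every kinetochore is attached. The anaphase-promoting complex then marks securin and cyclin B for destruction, separase cuts cohesin, and the central spindle guides the cell's final cleavage. Most of these genes are transcribed late in the cell cycle, and in mammals many carry a short promoter element called the cell cycle genes homology region (CHR), which is bound by MuvB complexes, together with CCAAT boxes bound by the factor NF-Y.

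Total expected counts, which are reads estimated per gene, were 28158803 in replicate 1 and 84041054 in replicate 2. The second library was therefore 2.98 times deeper, and pairs of counts given below are raw unless called scaled. Of the surface genes that describe the progenitor gate, Cd34 had 125 and 121 TPM in replicates 1 and 2, and Kit had 33.5 and 39.8 TPM, while Ly6a, which encodes Sca-1 and should be low, had 0.69 and 0.73 TPM. TPM is a level corrected for transcript length and scaled to the library. Fcgr2b had 6.28 and 6.11 TPM, Fcgr3 had 1.63 and 3.48 TPM and Il7r had 0.96 and 0.13 TPM. None of the 4 B cell markers and none of the 4 T and NK cell markers reached 1 TPM in either library, and 3 genes of each list had 0 counts in both. None of 4 mature macrophage markers did so, with a summed level of 0.84 and 1.07 TPM, and of 4 mature neutrophil markers only Retnlg did in both, at 1.00 and 1.74 TPM. Of the late red cell markers, Epb42 had 1.62 and 2.27 TPM, while Alas2 had 0.09 and 0.20 TPM and Slc4a1 had 0.61 and 0.17 TPM. Pecam1 was the only one of 4 stroma and endothelium markers at that level, with 8.76 and 12.6 TPM, and Cdh5 and Col1a1 had 0 counts. The part that other cells play in the mitotic gene levels was not tested.

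The promoter sequence of the genes was searched for these elements, which the choice of the list did not use, although several of the genes are known for them. RefSeq windows of 300 bases on GRCm38.p6, reaching from 250 bases before the transcription start to 50 after it, were held for 37 of the 44 genes. No window was used for Ccna2, Spc24, Aurkb, Incenp, Tpx2, Smc4 and Kif20a. The 120 bases printed here lie before both the RefSeq start and the GENCODE start of each gene and read 5′ to 3′ on the gene's own strand. Capitals mark the CHR letters TTTGAA or TTCGAA, or their reverse complements TTCAAA and TTCGAA, and the letters CCAAT or their reverse complement ATTGG. For each role with such a gene, the gene of highest level whose stretch held both kinds of letters is shown, and Birc5 is added as a gene whose whole window lacked the CHR letters.
Cdk1: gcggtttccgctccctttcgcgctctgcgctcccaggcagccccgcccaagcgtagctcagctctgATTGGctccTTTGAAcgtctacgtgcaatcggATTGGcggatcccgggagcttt
Cdc20: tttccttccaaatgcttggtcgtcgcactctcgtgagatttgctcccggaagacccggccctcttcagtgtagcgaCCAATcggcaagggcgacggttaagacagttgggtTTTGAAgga
Kif11: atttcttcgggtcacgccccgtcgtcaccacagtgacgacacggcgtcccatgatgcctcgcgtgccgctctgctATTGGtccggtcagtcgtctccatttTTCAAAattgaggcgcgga
Top2a: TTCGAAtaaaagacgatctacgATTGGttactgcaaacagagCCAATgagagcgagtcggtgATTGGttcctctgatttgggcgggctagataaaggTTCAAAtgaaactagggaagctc
Ect2: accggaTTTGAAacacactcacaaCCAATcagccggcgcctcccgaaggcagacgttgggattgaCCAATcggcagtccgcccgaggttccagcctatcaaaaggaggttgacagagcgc
Birc5: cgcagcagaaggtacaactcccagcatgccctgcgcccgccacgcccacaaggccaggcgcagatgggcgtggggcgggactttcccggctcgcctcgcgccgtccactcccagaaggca
Cdk1 is at chr10:69352939-69353058 on the minus strand, Cdc20 at chr4:118437353-118437472 on the minus strand and Kif11 at chr19:37376262-37376381 on the plus strand. Top2a is at chr11:99024190-99024309 on the minus strand, Ect2 at chr3:27153879-27153998 on the minus strand and Birc5 at chr11:117849117-117849236 on the plus strand. In Kif11 and Cdc20 a CCAAT box stood upstream of 1 CHR match close to the start, and in Top2a 3 CCAAT matches lay between 2 CHR matches.

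CHR letters were found on either strand in the windows of 29 of 37 mitotic genes (78.4%), against 40 of 89 other mitotic genes with a window (44.9%) and 6316 of all 32851 windows (19.2%). CCAAT letters were found in 28 of 37 mitotic genes (75.7%), against 51 of 89 other mitotic genes (57.3%) and 37.4% of all windows. Both occurred in 26 of 37 mitotic genes (70.3%), against 7.52% of all windows. The other mitotic genes here are 101 genes of 6 lists, made up of paralogs and partners, further kinetochore proteins, subunits of the anaphase-promoting complex, and further spindle and cohesion proteins. A match describes the letters in the window and not a bound site.

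The matches lay close to the start of transcription. Within 50 bases on either side of it, a span chosen after the matches were seen, CHR letters were present in 26 of 37 mitotic genes (70.3%), against 28 of 89 other mitotic genes (31.5%) and 5.31% of all windows. Anln, Aurka, Bub1, Cdca8, Cenpa, Cenpf, Hmmr, Kif23, Kif4, Ndc80, Plk1, Spc25 and Ttk had their only CHR matches after the start, so the count fell to 16 of 37 when only the bases before the start were searched, against 17.1% of all windows. The 8 mitotic genes with a window and no CHR letters were Ccnb1, Mad2l1, Pttg1, Cenpe, Nuf2, Birc5, Nusap1 and Ncaph. Their levels spanned 7.32 to 42.7 TPM, within the 1.96 to 144 TPM of the 29 genes with the letters. Among other coding genes the letters were no more common at high levels, with 17.3% of 2821 genes at 10 TPM or more on average and 19.6% of 13459 genes below it.

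**Figure D1:**
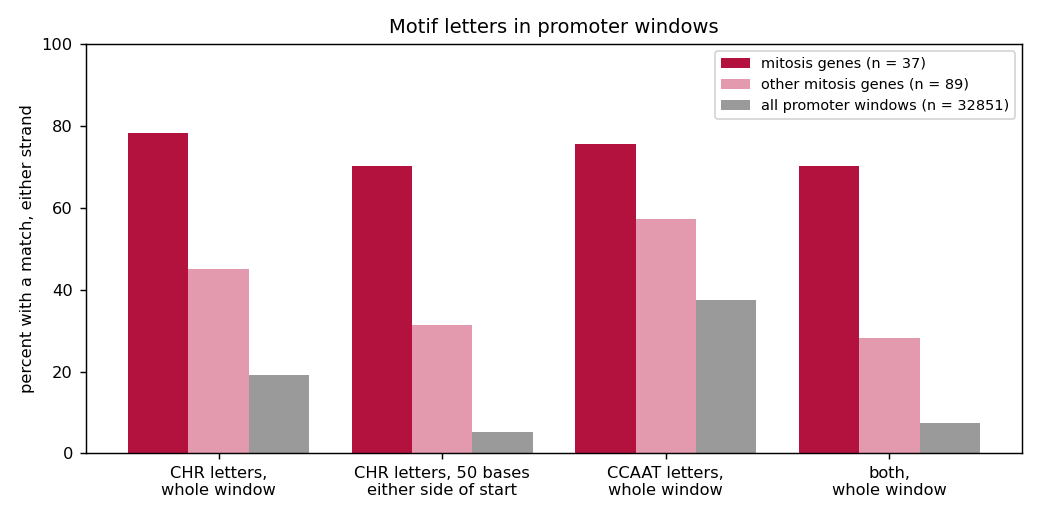
Percent with CHR or CCAAT letters on either strand, for the 37 mitotic genes with a window, 89 other mitotic genes and all 32851 windows. A gene counted if any of its windows matched, while all windows were counted singly. CHR letters within 50 bases of the start were found in 70.3% of the mitotic genes, against 5.31% of all windows.

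Every one of the 44 mitotic genes had a TPM of at least 1 in both libraries, a level reached by 42.5% of nuclear protein-coding genes. The median over the 44 genes was 19.1 TPM in replicate 1 and 19.9 TPM in replicate 2, or 19.5 ± 0.562 TPM (SD, n = 2). Among all nuclear protein-coding genes the median was 0.29 TPM in replicate 1 and 0.35 TPM in replicate 2. The list's median stood above 92% of those genes in replicate 1 and above 91.3% in replicate 2. Of the 44 genes, 43 lay above the 75th percentile in each library, and 25 lay above the 90th in both. The exception was Espl1. Together the 44 genes held 1.04% of all counts in replicate 1 and 0.999% in replicate 2. Because these are bulk samples, the share of dividing cells and the amount of mitotic RNA per dividing cell cannot be told apart.

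Levels spanned 77.5-fold between the highest and the lowest of the 44 genes in replicate 1 and 58.5-fold in replicate 2. Smc4 was the highest, followed by Top2a, Mki67, Ncapd2 and Smc2, all proteins of chromosome structure. Plk1, Anln, Kif2c and Espl1 were the lowest. Of the 43 neighbouring pairs in the order by mean TPM, 31 overlapped in their library values, so most of the order in the middle of the list lay within the spread between libraries. Smc4, Top2a and Mki67 at the top and Espl1 at the bottom each stood clear of their neighbours.

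**Figure D2:**
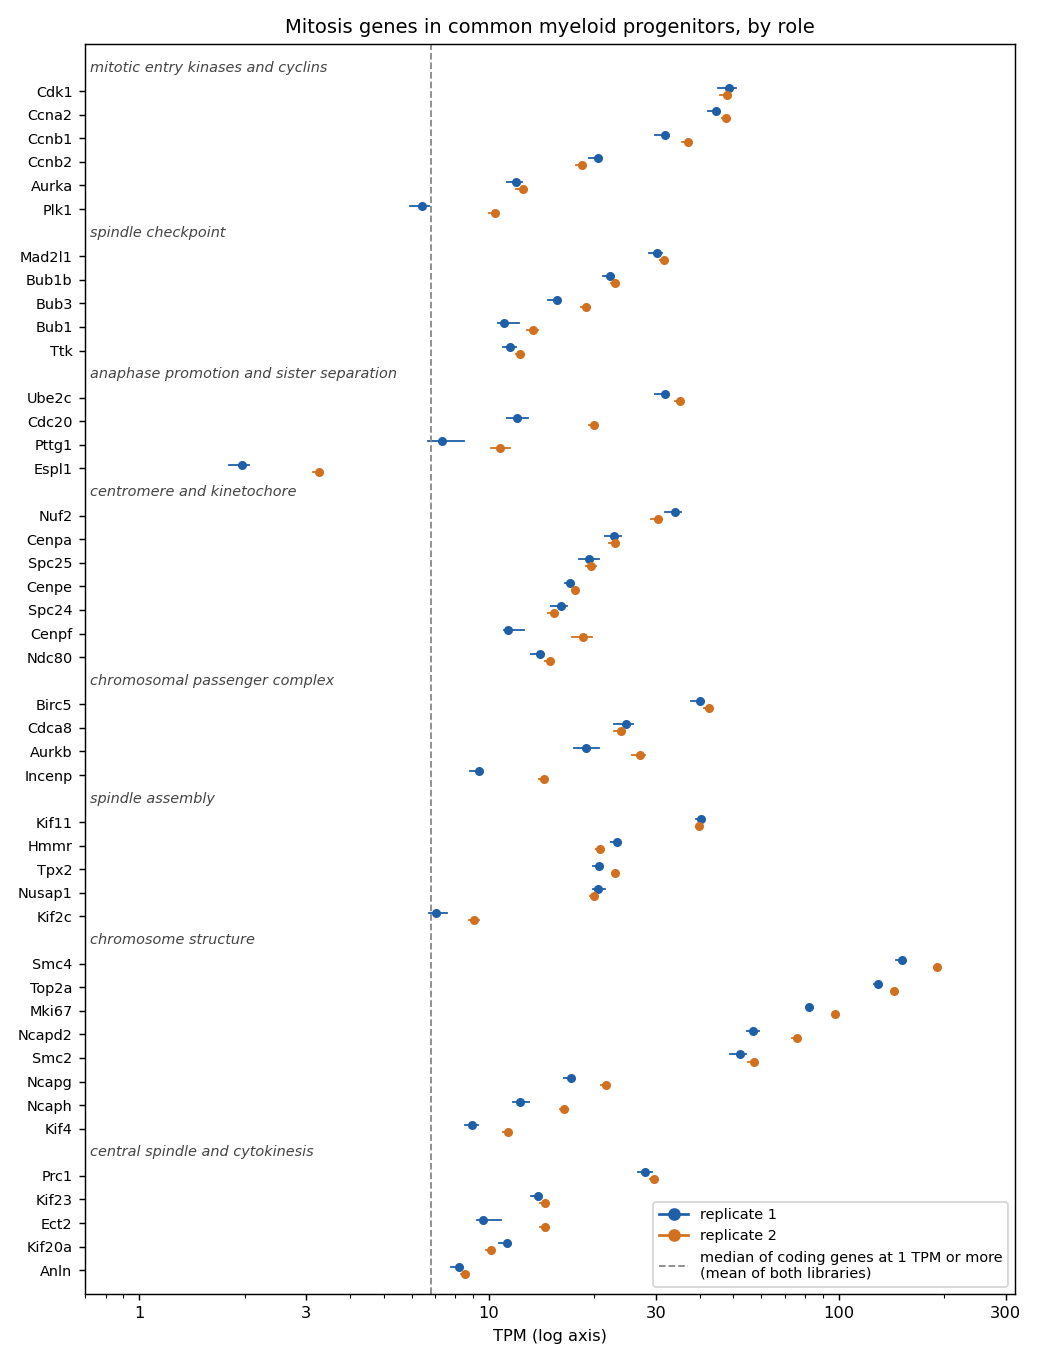
TPM (log axis) of the 44 mitotic genes in replicates 1 and 2, grouped by role. Points are TPM and bars the deposited intervals, and the dashed line is the mean over libraries of the median of coding genes at 1 TPM or more; chromosome structure genes Smc4, Top2a and Mki67 stand highest and Espl1 lowest.

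The genes of mitotic entry had a median of 26.1 TPM in replicate 1 and 27.7 TPM in replicate 2 over 6 genes. Cdk1, the kinase that drives entry, had 48.7 and 47.9 TPM in replicates 1 and 2, so the libraries were nearly level in TPM. Its partner Ccna2, cyclin A2, had 44.5 and 47.6 TPM. Of the B-type cyclins, Ccnb1 had 31.8 and 37.0 TPM and Ccnb2 had 20.5 and 18.4 TPM. Ccnb1 was higher than Ccnb2 in both libraries, by 0.82 ± 0.27 on the log2 TPM scale (SD, n = 2). On protein-coding transcript models the difference was 0.53 ± 0.26. Aurka, the kinase that matures centrosomes, had 11.9 and 12.5 TPM. Plk1, a polo-like kinase needed at many mitotic steps, had only 6.44 and 10.4 TPM. The deposited intervals of the libraries did not overlap for Plk1, Ccna2 and Ccnb1, higher in replicate 2, or for Ccnb2, higher in replicate 1. Over 11185 nuclear protein-coding genes whose mean expected count was 50 or more, intervals did not overlap for 65.3%. That was made up of 51.2% higher in replicate 2 and 14.1% higher in replicate 1, so such a gap was common.

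The spindle checkpoint genes were close in level, with a median of 15.6 and 18.9 TPM and a 2.74-fold range between the highest and lowest of the 5 in replicate 1. Mad2l1, which encodes the MAD2 protein that inhibits Cdc20, led with 30.2 and 31.6 TPM. Bub1b, the BubR1 protein of the same inhibitory complex, had 22.2 and 22.9 TPM, and Bub3, the adaptor that brings BUB proteins to kinetochores, had 15.6 and 18.9 TPM. The kinase genes were lowest, Bub1 with 11.0 and 13.4 TPM and Ttk, which encodes MPS1, with 11.5 and 12.3 TPM. The largest TPM ratio between libraries among the 5 was 1.22, for Bub1.

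Genes of anaphase and sister separation had a median of 9.68 TPM in replicate 1, the lowest of the groups there, and of 15.3 TPM in replicate 2. Ube2c, the ubiquitin-conjugating enzyme of the anaphase-promoting complex, had 31.8 and 35.2 TPM. Cdc20, the activator that loads the complex with its first substrates, had 12.0 and 19.9 TPM. Pttg1, securin, had 7.32 and 10.8 TPM, and Espl1, the separase that securin inhibits, had 1.96 and 3.26 TPM. Per length, securin was thus 3.73-fold and 3.3-fold above separase, while by counts unscaled for length it was the lower gene, since the separase transcript is far longer. Ube2c, Cdc20, Pttg1 and Espl1 were all higher by TPM in replicate 2, and their deposited intervals did not overlap between libraries. The same held for 51.2% of 11185 nuclear protein-coding genes, so this was common.

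At the centromere and kinetochore, the median of 7 genes was 17.1 TPM in replicate 1 and 18.6 TPM in replicate 2. Cenpa, the histone variant that marks centromeres, had 22.7 and 22.9 TPM. The 4 subunits of the NDC80 complex, the rod that binds microtubules, lay within 2.43-fold of each other in replicate 1 and 2.03-fold in replicate 2. Among them Nuf2 was highest with 34.1 and 30.4 TPM and Ndc80 lowest with 14.0 and 14.9 TPM, and Spc24 with 16.1 and 15.3 TPM and Spc25 with 19.3 and 19.5 TPM lay between. Cenpe, a kinetochore motor that carries chromosomes to the spindle equator, had 17.1 and 17.6 TPM. Cenpf, a large kinetochore protein, had 11.3 and 18.6 TPM, the largest TPM ratio of the 7.

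The chromosomal passenger complex corrects wrong attachments and later directs cleavage. Birc5, survivin, was its highest gene with 40.2 and 42.7 TPM, and Cdca8, borealin, had 24.6 and 23.8 TPM. Aurkb, the kinase of the complex, had 19.0 and 26.9 TPM, and Incenp, its scaffold, had 9.33 and 14.3 TPM. On protein-coding transcript models Aurkb had 16.4 and 15.5 TPM, and a retained-intron model of 462 bases held 7.54% and 29.1% of its TPM. By scaled counts Aurkb was 0.92-fold in replicate 2 over replicate 1. The range between the highest and lowest of the 4 subunits was 4.31-fold in replicate 1 and 2.98-fold in replicate 2, and Incenp was lowest in both. Aurkb stood above Aurka by 0.89 ± 0.31 on the log2 TPM scale (SD, n = 2), but by only 0.44 ± 0.02 on protein-coding models. Aurkc, the aurora kinase known from germ cells, had 0 counts in both libraries, which allows up to 3 counts, for counting error only. Divided by all counts of a library, that limit is 0.107 CPM for replicate 1 and 0.0357 CPM for replicate 2.

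Spindle assembly genes had a median of 20.6 and 20.8 TPM. Kif11, the kinesin that pushes spindle poles apart, led with 40.3 and 40.0 TPM. Hmmr, a microtubule-associated protein at spindle poles, had 23.2 and 20.8 TPM, Tpx2, an activator of Aurka, had 20.6 and 23.0 TPM, and Nusap1, a microtubule bundling protein, had 20.5 and 19.9 TPM. Kif2c, a kinesin that takes microtubules apart at centromeres, was lowest with 7.04 and 9.04 TPM. Its paralog Kif2a had 7.77 and 10.7 TPM, so Kif2c lay below it in both libraries, by a log2 difference of -0.19 ± 0.07 (SD, n = 2).

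The 8 genes of chromosome structure had the highest group median, 54.6 TPM in replicate 1 and 66.6 TPM in replicate 2. Smc4, part of the ATPase core shared by both condensins, had 152 and 191 TPM. Its partner in that core, Smc2, had 52.4 and 57.1 TPM. Smc4 stood above Smc2 by 1.64 ± 0.14 on the log2 TPM scale (SD, n = 2), but on protein-coding transcript models the ratio was 2.14-fold in replicate 1 and 1.15-fold in replicate 2. Top2a, the topoisomerase that untangles sister chromatids, had 130 and 144 TPM, and Mki67, which coats mitotic chromosomes and is used as a proliferation marker, had 82.4 and 97.6 TPM. The regulatory subunits of condensin I were unequal. Ncapd2 was highest with 56.9 and 76.1 TPM, Ncapg had 17.1 and 21.7 TPM, and Ncaph was lowest with 12.2 and 16.4 TPM. Kif4, a chromosome-bound kinesin, had 8.91 and 11.3 TPM. All 8 had a higher TPM in replicate 2, against 71% of 11185 nuclear protein-coding genes with a mean expected count of 50 or more. By scaled counts only 4 of the 8 were higher there, against 51.8% of those coding genes.

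For the central spindle and cytokinesis, the median of 5 genes was 11.2 TPM in replicate 1 and 14.4 TPM in replicate 2. Prc1, which bundles antiparallel microtubules at the midzone, led with 27.9 and 29.6 TPM. Kif23, the motor of centralspindlin, had 13.8 and 14.4 TPM, and Kif20a, which carries the passenger complex to the midzone, had 11.2 and 10.1 TPM. Ect2, the exchange factor that activates RhoA, had 9.58 and 14.4 TPM, and Anln, the actin-binding anillin, had 8.18 and 8.56 TPM.

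How the level of these genes rests on transcript models was read from the transcript tables. The 44 genes had 212 models with an entry, 102 of them typed protein-coding in GENCODE M21, 64 retained-intron, 32 processed transcripts and 14 targets of nonsense-mediated decay. Protein-coding models held 80.9% of the summed TPM of the 44 genes in replicate 1 and 76.2% in replicate 2, and retained-intron models held 12.2% and 15.1%. For the median gene of the list the protein-coding share was 97.4% and 96.5%, against 99.9% and 98.8% for the median nuclear protein-coding gene at 1 TPM or more. In 6 of the 44 genes the protein-coding share was below 75% in both libraries, and in 22 it was above 95% in both.

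Smc4, Ncapd2, Smc2 and Cdk1, at places 1, 4, 5 and 6 of the order, were among those 6. Cdk1, on chromosome 10 from 69335146 to 69352938, had 58.1% and 61.1% of its TPM on a retained-intron model of 475 bases, to which only 562 and 1558 counts were assigned. On protein-coding models Cdk1 had 19.7 and 18.5 TPM, and its place among the 44 genes went to 20 by that measure, against 6 over all models. Smc4, on chromosome 3 from 69004738 to 69034623, had 74.9 TPM in replicate 1 and 44.8 TPM in replicate 2 on protein-coding models, which is 49.3% and 23.5% of its total. Its remaining TPM lay mainly on a retained-intron model of 756 bases, with 38.6 and 77.0 TPM, and on a decay model of 4057 bases, with 17.9 and 51.8 TPM. Counts of Smc4 as a whole differed by only -0.07 between libraries on the log2 scale, so the difference on coding models lay in which model received the counts.

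Ncapd2, on chromosome 6 from 125168007 to 125191701, had 21.7 and 34.1 TPM on protein-coding models, 38.1% and 44.8% of its total. Scarna10, a small Cajal body RNA on the same strand, lies within it, held 10754 and 28839 counts, and overlaps an exon of a retained-intron model of 682 bases, to which 15.7% and 20.7% of Ncapd2 TPM were assigned. Expected counts of Ncapd2 were not whole numbers, as happens when reads are divided between entries, so its level is uncertain. The same was true of Ccnb1, Cdc20 and Kif11, within a tolerance of 0.005, whereas the other 40 genes had whole counts in both libraries. Smc2, Cenpa and Ncapg completed the 6, with protein-coding shares of 66.9% and 68%, 69% and 63.4%, and 68.9% and 60.1%. On protein-coding models Top2a, with 105 and 114 TPM, and Mki67, with 82.4 and 97.6 TPM, were the highest genes of the list, followed by Smc4, Birc5 and Ccna2.

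**Figure D3:**
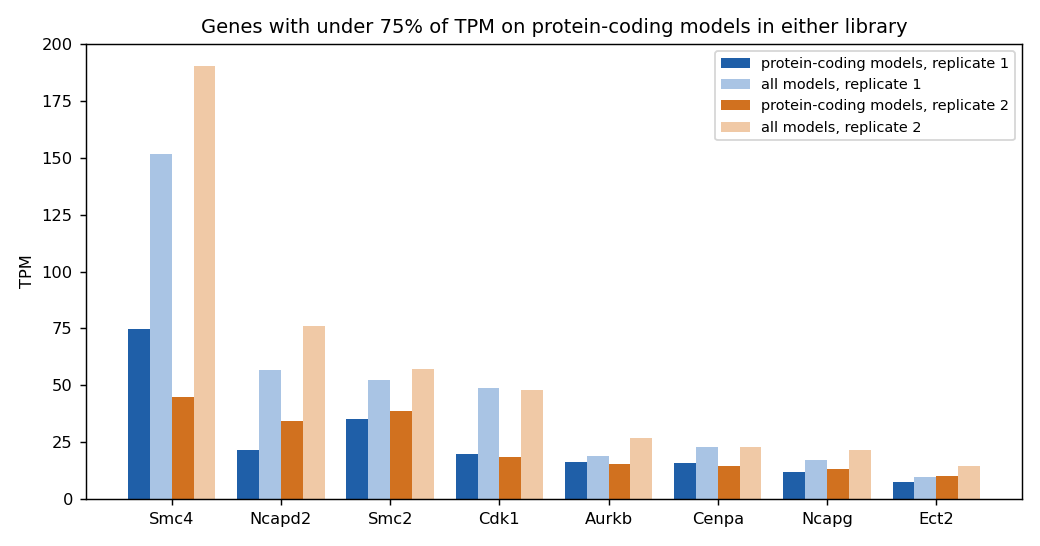
TPM on protein-coding transcript models and on all models, per library, for the 8 genes with a protein-coding share below 75% in either library. Smc4, Ncapd2 and Cdk1 had less TPM on protein-coding models than on the others, and Smc4 on coding models had 74.9 TPM in replicate 1 and 44.8 TPM in replicate 2.

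The same transcript led in both libraries for 40 of the 44 genes, and 12 genes had only 1 model with an entry. Different models led for Prc1, Pttg1, Smc2 and Smc4. A Pttg1 model of 700 bases had no TPM in replicate 1 and 58.4% of Pttg1 TPM in replicate 2, while a model of 741 bases had 73.4% and 38.6%. These shares rested on few counts, 294 for the whole gene in replicate 1. In Cenpf, a coding model of 358 bases received 0 counts in replicate 1 and 129 in replicate 2, which made up 22.5% of Cenpf TPM there. Cenpf counts differed by 0.09 between libraries on the log2 scale, while its TPM differed by 0.71.

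Scaled counts of the 44 genes differed little between the libraries. After TMM scaling, the median log2 ratio of replicate 2 over replicate 1 was -0.08 over the 44 genes, against 0.01 over the 11185 nuclear protein-coding genes whose mean expected count was 50 or more. It ran from -0.42 for Hmmr to 0.52 for Espl1. None of the 44 genes differed by 2-fold or more, against 7.66% of those coding genes, and none differed by 1.5-fold, against 17.6%. This background was lower among deeply covered genes. Over the 7867 coding genes with a mean count at least that of Pttg1, the least covered of the 44 at 714, 0.636% differed by 2-fold and 6.03% by 1.5-fold, so a count of 0 among 44 was near the background. By TPM, 6 of 44 differed by 1.5-fold or more, all higher in replicate 2, against 26.4% of the 11185 coding genes. They were Espl1, Cdc20, Cenpf, Plk1, Incenp and Ect2. The TPM share was not computed for the deeply covered coding genes alone, so 26.4% is not a background of like depth.

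**Figure D4:**
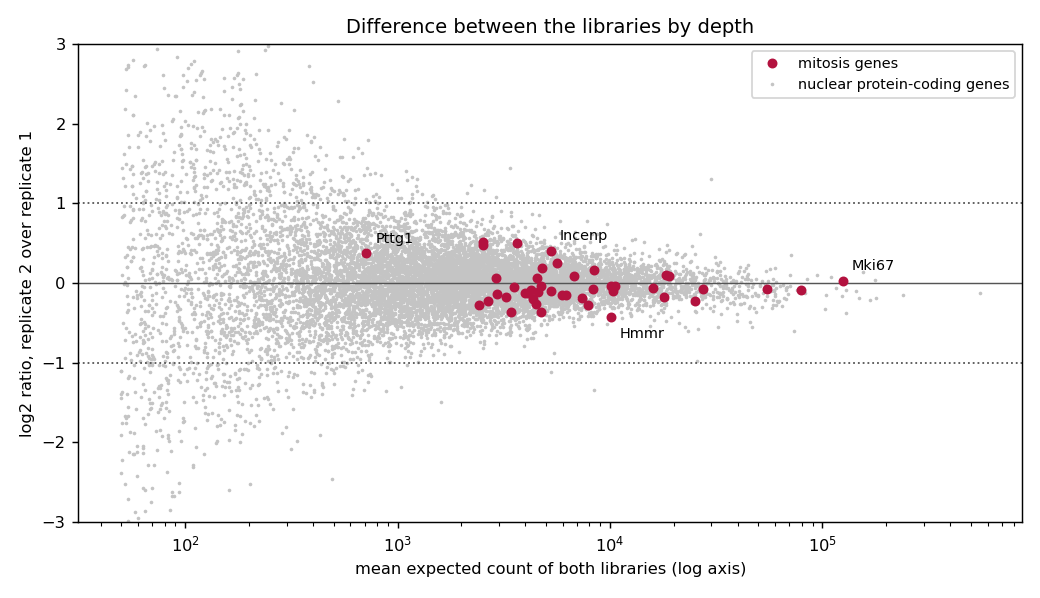
Log2 ratio of scaled counts, replicate 2 over replicate 1, against the mean expected count (log axis), for the 44 mitotic genes and for nuclear protein-coding genes whose mean count was 50 or more. Dotted lines mark 2-fold; the 44 genes lie between -0.42 and 0.52, and 127 other genes lie beyond the axis limits.

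The direction of these small differences depended on the scale. By scaled counts 14 of 44 genes were higher in replicate 2, against 51.8% of coding genes, whereas by TPM 35 of 44 were higher in replicate 2, against 71% of coding genes. The median log2 ratio by TPM was 0.11 over the 44 genes and 0.22 over the coding genes, so on both scales the list lay slightly below the coding genes. Deposited TPM intervals of the libraries did not overlap for 30 of 44 genes, against 65.3% of coding genes, with 26 higher in replicate 2, against 51.2% of coding genes, and 4 higher in replicate 1, against 14.1%. After rescaling TPM to nuclear protein-coding genes, 25 of 44 did not overlap, against 61.3%, with 18 higher in replicate 2 and 7 higher in replicate 1. Before rescaling, the 4 higher in replicate 1 were Ccnb2, Nuf2, Hmmr and Kif20a. The intervals describe the estimate within a library and not the spread between animals, and their level was not given in the sources used here.

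Within the list the genes highest in replicate 2 by scaled counts were Espl1 at 1.43-fold, Cdc20 at 1.41-fold, Plk1 at 1.39-fold, Incenp at 1.32-fold and Pttg1 at 1.29-fold. Hmmr at 0.75-fold and Ccnb2 and Kif20a at 0.78-fold each were lowest. The leading transcripts of Espl1, Plk1, Cdc20 and Incenp had 56.1%, 56%, 55.6% and 54.5% GC, the highest GC contents of the list, whose median was 46.7%. That of Pttg1 had 47.9% GC. Next in GC content were Ncapd2, Cdca8, Aurkb and Spc24, at 54.0%, 52.9%, 52.5% and 52.2%. Their log2 ratios were 0.10, -0.20, -0.13 and -0.28. Over the 44 genes the log2 ratio and the GC content of the leading transcript had a Pearson correlation of 0.38 and a Spearman correlation of 0.22, and over 11106 coding genes the values were 0.07 and 0.10. These points share the same libraries and are genes, not independent replicates. The part of GC content in the ratios was not tested.

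The genes of the list were then set beside their paralogs and partners, a list of 28 genes whose median was 4.26 TPM in replicate 1 and 5.08 TPM in replicate 2, with 22 at 1 TPM or more in both libraries. Besides Aurkc, the genes Ccna1, Ccnb3, Cdc20b and Kif2b had 0 counts in both libraries, so transcripts of only the mitotic forms Ccna2, Ccnb1, Ccnb2, Cdc20 and Kif2c were counted within those pairs. Top2b, the topoisomerase also used outside division, had 50.2 and 63.6 TPM. Top2a stood above it by 1.28 ± 0.13 on the log2 TPM scale (SD, n = 2), and by 1.06 ± 0.11 on protein-coding models. Cdc20 exceeded Fzr1, the later activator of the same complex, by 1.62 ± 0.32, and by 2.62 ± 0.45 on protein-coding models. Mad2l1 exceeded Mad2l2 by 3.58 ± 0.72, and by 4.18 ± 0.28 on protein-coding models. Plk1 stood below Plk4, the kinase of centriole copying, which had 19.7 and 18.0 TPM over all models and 10.2 and 11.6 TPM on protein-coding models. Cdk1 stood above Cdk2 by 2.30 ± 0.29, but by only 0.97 ± 0.34 on protein-coding models.

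Condensin I acts after the nuclear envelope breaks down and condensin II earlier, inside the nucleus, and they differ in 3 subunits each. Mean log2 TPM of Ncapd2, Ncapg and Ncaph exceeded that of Ncapd3, Ncapg2 and Ncaph2 by 1.03 in replicate 1 and 1.16 in replicate 2, or 1.09 ± 0.09 (SD, n = 2). The subunits did not share the direction. Ncapd2 stood above Ncapd3, which had 8.46 and 8.92 TPM, by 2.92 ± 0.24, and Ncapg stood above Ncapg2, with 9.77 and 11.5 TPM, by 0.86 ± 0.07. Ncaph lay below Ncaph2, which had 17.0 and 23.7 TPM, by a log2 difference of -0.50 ± 0.04. On protein-coding models the difference between the complexes was 0.52 ± 0.20, made up of 1.65 ± 0.41 for Ncapd2, 0.22 ± 0.07 for Ncapg and -0.31 ± 0.27 for Ncaph.

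**Figure D5:**
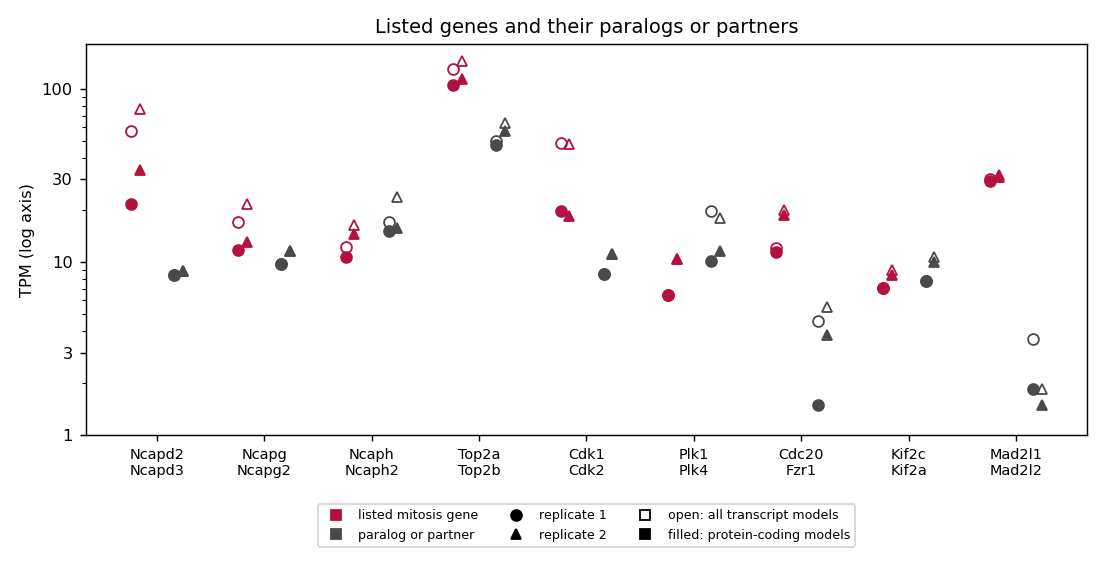
TPM (log axis) of listed mitotic genes, left in each pair, and of a paralog or partner, right in each pair, in replicate 1 (circles) and replicate 2 (triangles), over all models (open) and protein-coding models (filled). Top2a, Cdc20, Mad2l1 and Ncapd2 stood above their partners on both measures, while Ncaph stood below Ncaph2.

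Regulators of late cell cycle transcription and of Cdk1 were present at lower levels. Foxm1 had 1.82 and 3.38 TPM and Mybl2, which encodes B-Myb, had 4.09 and 6.00 TPM. Of the MuvB subunits, Lin54, which contacts CHR DNA, had 8.08 and 7.02 TPM, of which 6.71 and 5.36 TPM lay on protein-coding models. Lin9 had 8.07 and 12.3 TPM, but only 0.43 and 0.07 TPM on protein-coding models. Lin37 had 4.43 and 4.63 TPM, with 0.83 and 2.35 TPM on protein-coding models, and Lin52 had 3.15 and 3.05 TPM, all of it on such models. Wee1, which inhibits Cdk1, had 7.36 and 13.7 TPM and Pkmyt1, its membrane-bound relative, 2.83 and 5.65 TPM. The activating phosphatase Cdc25a had 6.41 and 9.81 TPM, Cdc25b 2.77 and 3.50 TPM and Cdc25c 3.15 and 2.50 TPM. Wee1, Pkmyt1, Cdc25a and Cdc25b were higher by TPM in replicate 2, and Cdc25c was lower there. Of 11185 nuclear protein-coding genes with a mean expected count of 50 or more, 71% were higher by TPM in replicate 2. Mastl, which protects mitotic phosphorylation, had 4.55 and 2.74 TPM, and 2.48 and 2.74 TPM on protein-coding models. Plk2 had 1.51 and 1.55 TPM and Plk3 0.81 and 0.64 TPM, of which 0.28 and 0 TPM lay on protein-coding models.

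Further mitotic genes were nearly all present. All 17 genes of the inner kinetochore and CENP-A loading, all 15 of the outer kinetochore and checkpoint, all 16 of the anaphase-promoting complex and all 6 of centromeric cohesion and passenger partners reached 1 TPM in both libraries, with 18 of 19 of the other spindle and cytokinesis genes. The exception, Fam83d, had 1.40 and 0.66 TPM. Their group medians ran from 7.33 to 13.6 TPM in replicate 1 and from 8.34 to 15.3 TPM in replicate 2, below the 19.1 and 19.9 TPM of the 44 genes. The highest of the inner kinetochore list was Hjurp, the chaperone that deposits CENP-A, with 38.7 and 45.4 TPM, and the lowest was Cenpw with 1.23 and 1.26 TPM. Zwint led the outer kinetochore list with 49.7 and 51.0 TPM, followed by Zwilch with 28.5 and 30.6 TPM, though on protein-coding models Zwilch had only 9.87 and 8.83 TPM, below Pmf1 with 20.9 and 18.0 TPM. Nsl1 was lowest with 2.13 and 2.96 TPM. In the anaphase-promoting complex, Anapc5 had 45.8 and 52.6 TPM, and Ube2s, which extends ubiquitin chains begun by Ube2c, had 41.4 and 47.5 TPM.

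For 8 of the 44 genes, a detected protein-coding gene on the opposite strand overlaps the locus, and whether the counting used strand was not given in the sources used here. They are Ccna2 with Exosc9, Cdc20 with Elovl1, Cdca8 with 9930104L06Rik, Kif20a with Cdc23, Kif4 with Pdzd11, Ncapg with Lcorl, Nusap1 with Oip5, and Prc1 with Rccd1. The partners held fewer counts than the mitotic gene except for Cdc23, with 2915 and 8092 counts, against 2868 and 6637 for Kif20a. Of these 8 genes, only Cdc20 had expected counts that were not whole numbers. The part of overlapping reads in the levels of the 8 genes was not tested, so the levels are uncertain to that degree.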

How the data were processed

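Total RNA of common myeloid progenitors was sequenced in 2 libraries of 1 group. For each library the authors deposited gene-level and transcript-level estimates, made against mm10 and GENCODE M4 as its readme states. Which aligner and quantifier they ran is not given in the sources used here. The deposited expected counts estimate reads and can hold fractions. Deposited TPM and posterior mean TPM correct for effective length over every entry listed, small structural RNAs included. The deposited interval bounds belong to the posterior mean, so a TPM can lie outside them. Entries without an Ensembl ID, with 0 counts in replicate 1 and 83 in replicate 2, stayed out of library sizes. A count of 0 allows up to 3 counts.

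The 44 genes and all gene lists were chosen with earlier results of these data known. All 175 listed symbols were matched by Ensembl ID to GENCODE M21 on GRCm38, the assembly of mm10, which gave classes, coordinates and transcript types. All 44 genes could be named, with every paralog and partner, the 3 highest and 3 lowest of each further list by mean TPM, and the cell markers. Some listed genes are not reported here. Genes named as opposite-strand neighbours, and Scarna10, were chosen after their overlap was seen. Levels were medians of TPM per library. Expected counts were rounded and scaled with TMM in edgeR 4.0.16 (DESeq2 1.42.0 as an alternative) in R 4.3.3, and log2 ratios used a prior count of 0.5. GC content was that of the transcript of highest mean TPM. The scaling step was tested on simulated counts that held counting error only, with changes far larger than those of the 44 genes. It did not test recovery of ratios as small as those reported here. No p-value was computed, since there was 1 group. Motif letters were searched in RefSeq promoter windows, and for 31 of 37 genes the last 30 bases of a window were found in a GENCODE transcript of the same gene. Python 3.11.15, pandas 2.3.3 and matplotlib 3.10.9 were used.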

Additional observations from a re-analysis of the deposited data

How the results depend on the processing

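All 44 genes kept 1 TPM in both libraries under posterior means, lower interval bounds, rescaling to nuclear protein-coding genes, protein-coding models only and either library alone. The median TPM was 93.9 after rescaling, whose construction raises every gene, and 17.6 on protein-coding models, an alternative chosen after seeing the data; either library alone gave 19.1 to 19.9. The percentile of that median, 91.7 on average, was 90.2 by CPM, 84.4 among genes with at least 10 counts in both libraries, where fewer genes are ranked, and 92.4 on protein-coding models; either library alone gave 91.3 to 92.0. The median log2 ratio between libraries was 0.11 by TPM; 4 other settings gave values close to -0.08. No gene differed by 2-fold under any scaling run. None differed by 1.5-fold after TMM scaling, but 6 did by TPM, a setting added after seeing the data. Non-overlapping intervals numbered 25 after rescaling. The condensin difference was 0.19 by CPM, which is not corrected for length, and 0.52 on protein-coding models; either library alone gave 1.03 to 1.16. CHR letters before the start were found in 16 genes, against 29 in the whole window, since many genes had their only matches after the start. Over all windows the share was 17.1% before the start and 19.2% in the whole window. With n = 2, either library alone lies within 1 SD of the mean by construction, so those values say nothing about stability. Of 21 other alternatives for 7 paralog differences, added after seeing the data, 11 moved by more than the spread between libraries, 5 by CPM and 6 on protein-coding models, 10 did not, and 0 changed sign. No paired analysis was possible because there was 1 group. Depth differed 2.98-fold between the libraries, and with n = 2 the SD itself is poorly known.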
